A study of Mus musculus with 40 samples.

Results

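Whole pancreas was profiled in the male offspring of high-fat dams, and the diet that these animals ate after weaning was compared. Of the 40 pancreas arrays in the series, 20 carried a high-fat (HF) label for the mother's diet, and every one of them was used. Of these, 10 came from mice weaned onto the HF diet (HF_HF) and 10 from mice weaned onto a low-fat (LF) diet (HF_LF), so the dam's HF diet was shared by both groups. All were C57BL/6J males, and 1 array was hybridised per animal. The dams ate the HF diet, whose fat was mainly coconut oil, from before mating until their pups were weaned at 3 weeks. The offspring were killed as young adults after a short fast. The other 20 arrays, from offspring of LF dams weaned onto the HF diet (LF_HF, n = 10) or the LF diet (LF_LF, n = 10), enter only where the effect is set against theirs.

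The labels name 6 birth cages for the 20 animals. The HF_HF mice came from cages 10 (1 animal), 20 (3), 21 (3) and 23 (3), and the HF_LF mice from cages 1 (2), 10 (2), 12 (2), 20 (1) and 23 (3). Only cages 10, 20 and 23 therefore held both diets. A breeding cage held a pair of dams, so a cage is not certainly 1 litter. At 3 weeks HF_HF mice weighed 9.38 to 13.4 g (median 11.6) and HF_LF mice 9.71 to 12.0 g (median 11.0). A second weight, which the labels tie to weaning but whose size is that of grown mice, was 28.4 to 34.1 g (median 30.1) in HF_HF mice and 20.4 to 25.8 g (median 24.7) in HF_LF mice. The groups did not overlap in that weight and the difference was 6.78 g (two-sided permutation test, adjusted p = 0.00012). Fasting glucose was 129 to 271 mg/dl (median 178) in HF_HF mice and 148 to 241 mg/dl (median 191) in HF_LF mice, a difference of the means of -5.5 mg/dl (two-sided permutation test, adjusted p = 0.728).

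The exocrine pancreas is built of acinar cells, which make more protein per cell than almost any other cell and secrete it as digestive enzymes. Such a load makes them dependent on the folding and transport machinery of the endoplasmic reticulum (ER), and on the integrated stress response, in which the transcription factor ATF4 switches on genes of amino acid supply and stress defence when translation is restrained. Fgf21, a metabolic hormone best known from liver, is one of these genes and is also made by acinar cells, where it is known to favour secretion. The Reg genes encode small secreted proteins that acinar cells make in large and variable amounts, most of all when the gland is stressed or inflamed.

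Values are linear signal units, quantile normalized by the authors. The median of each array was 62.9 to 63, the 75th percentile about 79.3 and the highest possible value 35587.5. Background was not subtracted, so folds of genes near the array median are compressed. Differences are HF_HF minus HF_LF on the log2 scale, with the standard error (SE) of the limma fit and Benjamini-Hochberg adjusted p over 12246 tested probes, and "rose" and "fell" are used of genes with an adjusted p under 0.05. The p-values measure the spread between animals, several of which shared a cage. In whole tissue, fewer cells of a type and less RNA per cell cannot be told apart.

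Of the tested probes, 274 (2.24%) passed, 128 (1.05%) higher and 146 (1.19%) lower in HF_HF. With 1 probe per gene, the one with the highest mean, 218 of 8858 genes passed (2.46%): 104 rose (1.17%) and 114 fell (1.29%). Of these genes 59 had other tested probes, 81 in all, of which 71 pointed the same way and 14 passed in that direction. Changes were small, with a median of 1.18-fold, 86 genes over 1.2-fold (39 higher, 47 lower) and 9 over 1.5-fold. In 152 of the 218 genes all 10 HF_HF animals lay on the same side of the HF_LF median, but ranges nearly always overlapped. These genes were picked by their difference between the same animals, so this count only describes them. Only 6 probes (0.049%) separated the groups completely, and all were called: higher in HF_HF for Snrpa and Sphk2, and lower for Habp2, Rpl13a and 1 probe each of Fbxo34 and 2410002F23Rik. For Snrpa and Sphk2 the nearest animals of the groups all but touched (119.8 in HF_HF and 119.7 in HF_LF for Snrpa, 133.4 in HF_HF and 133.3 in HF_LF for Sphk2).

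The number of calls moved a great deal with which cages and animals were included. With cage as a fixed block, which uses only differences within cages, 51 probes passed, 35 of them among the 274, and with cage as a random block 274 passed. Only the 3 cages with both diets gave 26. Dropping all animals of cage 23 left 2 calls, Nupr1 and Errfi1, while dropping cage 21 left 13, cage 10 48, cage 12 132 and cage 1 158. Leaving out 1 array gave between 81 (without HF_LF 2) and 551 (without HF_HF 7). The count also moved by over 1.5 times without HF_HF 2 (115), 3 (142), 6 (92), 8 (106) or 10 (110), and without HF_LF 1 (179), 4 (136), 6 (115), 8 (148), 9 (175) or 10 (120). All 274 probes kept their direction in every one of these fits. The fits reuse animals that made the calls, so this is a description. Of the 40 largest or smallest-p genes described here, 38 lost their call without cage 23 and 31 without cage 21, and 19 passed with cage as a fixed block.

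**Figure D1:**
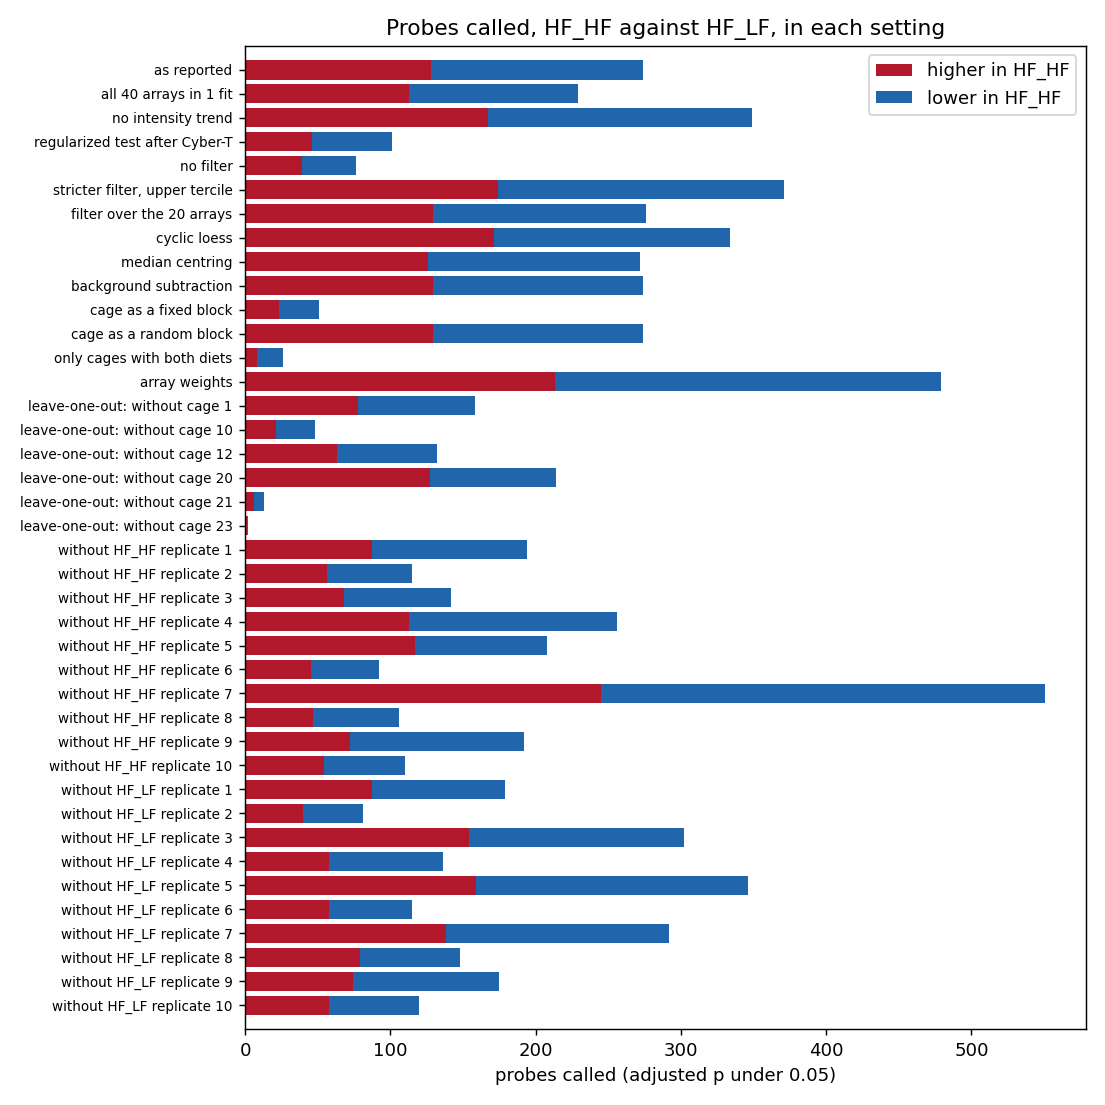
Number of probes called (x axis, adjusted p under 0.05) in each setting of the comparison, split into probes higher (red) and lower (blue) in HF_HF. The analysis as reported called 274, the fit with cage as a fixed block 51, and the fit without cage 23 only 2.

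The highest-fold increase was that of Fgf21, of the integrated stress response. Its signal was 184.5 at its lowest, 264 at the median and 392 at its highest in HF_HF mice, against 83.4, 140 and 256.5 in HF_LF mice. All 10 HF_HF animals lay above the HF_LF median and 5 above the highest HF_LF animal, and 7 HF_LF animals lay below the lowest HF_HF animal. The difference was 0.88 (SE 0.18, 1.84-fold, adjusted p = 0.0155), and within cages 10, 20 and 23 it was 0.84, 0.65 and 1.02. Atf5, a transcription factor made under ATF4 control, read 373 to 872 (median 486) in HF_HF and 183.5 to 561 (median 332) in HF_LF. It rose 1.64-fold (log2 0.71, SE 0.16, adjusted p = 0.0243), most in cage 10 (1.73) and less in cages 20 (0.62) and 23 (0.75). The highest Atf5 value was that of the 1 HF_HF animal of cage 10.

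Nupr1, a small chromatin protein, was among the brightest genes on the array. It ran from 14240 to 25205 (median 19002) in HF_HF and from 9163 to 14729 (median 13248) in HF_LF. The groups overlapped only slightly, with 9 of 10 HF_HF animals above the highest HF_LF animal, and the lowest value by a wide gap was HF_LF 9. The rise was 1.45-fold (log2 0.54, SE 0.09, adjusted p = 0.00714). With cage as a fixed block the adjusted p was 0.0655 for Nupr1, against 0.0424 for Fgf21 and 0.0199 for Atf5. Atf5 lost its call without HF_HF 6 or HF_LF 2 (adjusted p 0.0528 to 0.0563), while Fgf21 and Nupr1 kept theirs without any 1 array. Leaving out whole cages, Nupr1 passed each time, Fgf21 lost its call without cage 21 (adjusted p = 0.0582) or 23 (0.0948), and Atf5 without cage 10, 20, 21 or 23 (0.056 to 0.127).

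Beyond these 3, the other 18 of the 21 tested genes of the list did not pass. In all, 20 of 21 were higher in HF_HF (median 0.16), against 50.05% of all tested genes (median 0.00), and 3 rose (14.3%, against 1.17% of all genes). The asparagine synthetase Asns read 2541 to 4251 (median 3201) in HF_HF and 1950 to 3292 (median 2690) in HF_LF (log2 0.27, SE 0.09, adjusted p = 0.12). Atf4 itself had a difference of 0.11 (SE 0.11, adjusted p = 0.662), the glutathione-degrading Chac1 0.19 (SE 0.30, adjusted p = 0.788) and the pseudokinase Trib3 0.03 (SE 0.04, adjusted p = 0.743). The list median within cages 10, 20 and 23 was 0.40, 0.14 and 0.18, and it was 0.14 without HF_HF 5 and 0.16 without HF_LF 4. Ddit4 was the 1 member lower in HF_HF (log2 -0.16, adjusted p = 0.206).

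The short element TGATGCAA is bound by ATF4 together with a C/EBP factor and is known from genes of the amino acid response. It was searched on both strands in the 250 bases before the start of each gene in the RefSeq promoter table (GRCm38.p6), where 248 of 27025 genes hold it (0.918%). Among the called genes with a promoter in that table, 3 of 83 that rose hold it (3.61%) and 0 of 87 that fell. The 3 are Fgf21, Nupr1 and Chchd10, and Chchd10 holds it in tandem. Windows around the site are shown for these 3 and for Chac1, with the element in capitals, each 5′ to 3′ on the strand of the gene (TTGCATCA is the same element on the other strand).
Fgf21, chr7:45615596-45615655, minus strand: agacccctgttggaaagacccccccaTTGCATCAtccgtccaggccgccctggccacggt
Nupr1, chr7:126625547-126625606, minus strand: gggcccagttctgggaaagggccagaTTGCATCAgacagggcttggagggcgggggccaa
Chchd10, chr10:75933019-75933078, plus strand: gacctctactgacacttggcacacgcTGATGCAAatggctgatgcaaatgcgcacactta
Chac1, chr2:119351023-119351082, plus strand: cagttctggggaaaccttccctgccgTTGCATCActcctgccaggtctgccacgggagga
The element starts 139 bases before the start of Fgf21, 110 before Nupr1, 85 and 72 before Chchd10 and 193 before Chac1. Of 20 listed stress response genes with a promoter, 7 hold it, and those not called include Chac1, Herpud1, Slc7a11 and Vldlr. The looser form TGATGNAA, which includes every TGATGCAA, is in 3.91% of all genes and in 6 of the 83 that rose and 0 of the 87 that fell. Of 8 motifs searched on both strands, the cAMP response element (TGACGTCA, 1.77% of all genes) is in 6 of the 83 that rose (7.23%) and 2 of the 87 that fell (2.3%). An E-box (CACGTG, 6.86%) is in 8 that rose (9.64%) and 12 that fell (13.8%), and the CCAAT box (CCAAT, 37.5%) in 36 that rose (43.4%) and 44 that fell (50.6%). The FoxO element (TGTTTAC, 3.54%) is in 4 that rose and 4 that fell, and a sterol element (TCACNCCAC, 1.22%) in 0 that rose and 1 that fell. The cAMP element and TGATGCAA thus both stand in a share of the genes that rose about 4 times that of all genes, and none of these shares was tested. All genes here are those of the promoter table, whether or not the array tested them, and the shares among tested genes were not computed. The CCAAT box and the E-box exceed their share of all genes both in genes that rose and in genes that fell. A match describes these letters and is no evidence of binding in these mice.

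**Figure D2:**
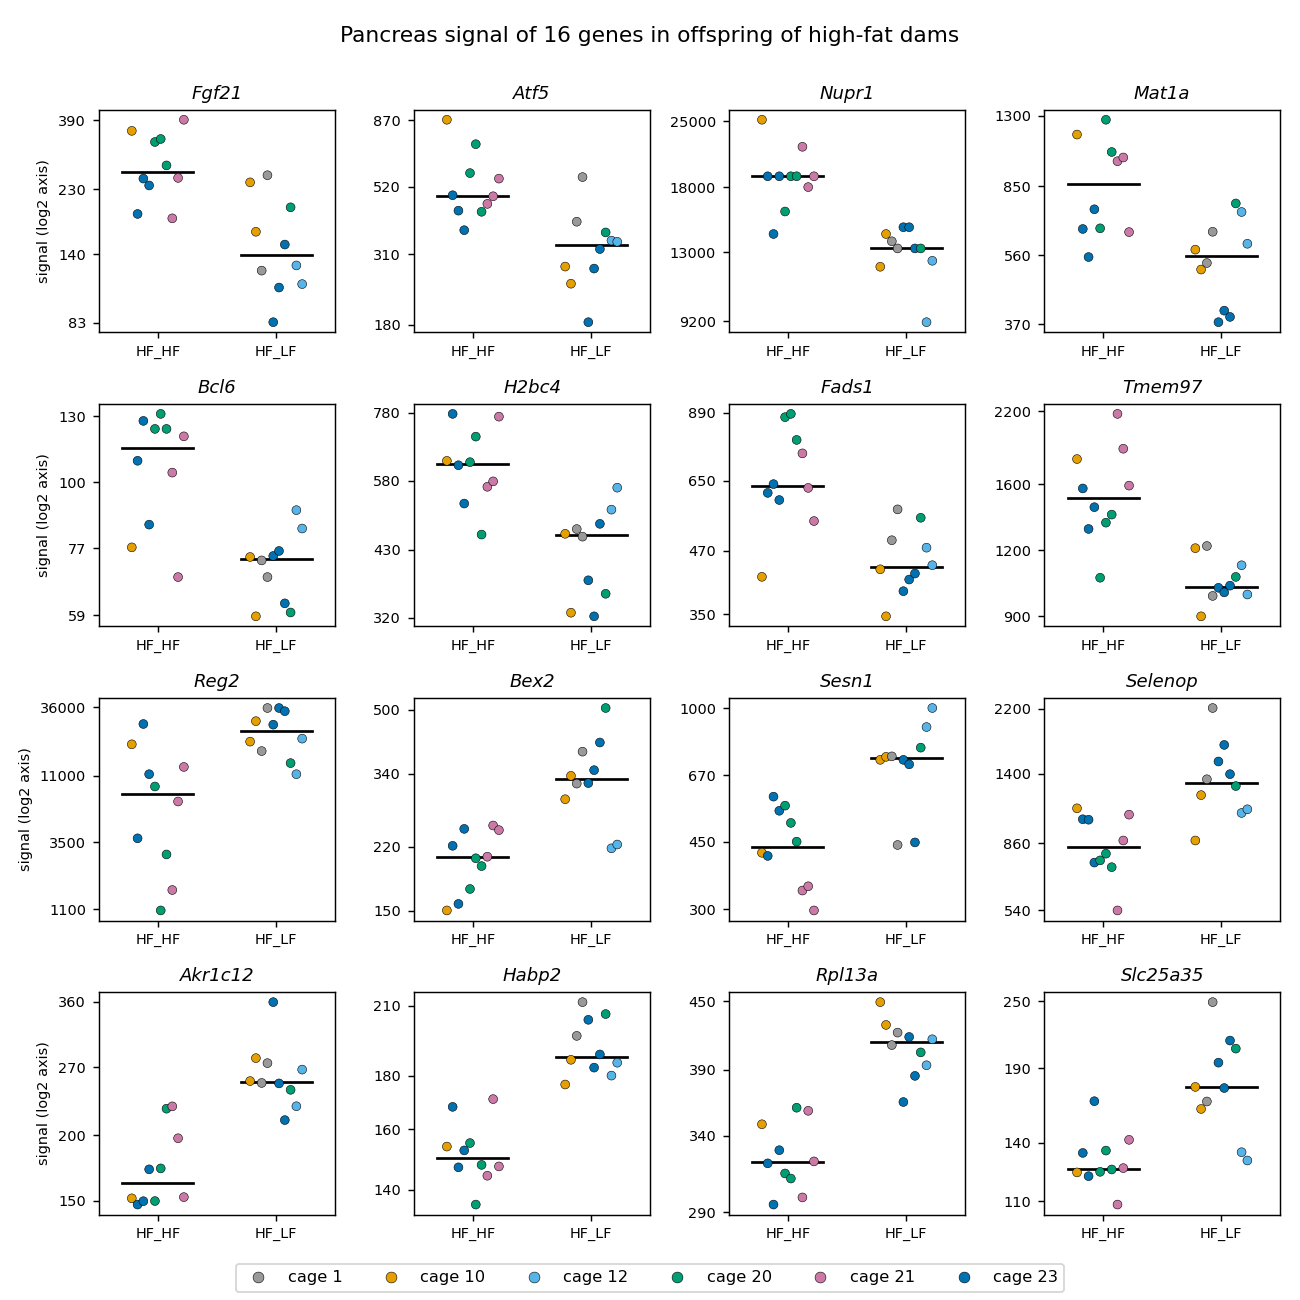
Signal of 16 genes in each animal (y axis, log2 spacing, own range per gene), HF_HF left and HF_LF right, 10 animals each, coloured by birth cage, with a bar at the median. The upper 8 genes rose and the lower 8 fell; Habp2 and Rpl13a do not overlap between the groups, and Reg2 in HF_HF runs from 1075 to 26993.

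Among genes that supply amino acids and methyl groups, single members were called. Mat1a makes the methyl donor S-adenosylmethionine and in most tissues is displaced by Mat2a, while liver and acinar cells express it. Its signal was 554 to 1270 (median 864) in HF_HF and 374 to 766 (median 557) in HF_LF, with 5 HF_HF animals above the highest HF_LF animal. The 3 lowest values were the 3 HF_LF animals of cage 23. Mat1a rose 1.57-fold (log2 0.65, SE 0.16, adjusted p = 0.0348), a call lost without any 1 of 7 arrays (HF_HF 1, 6, 8 and 9 and HF_LF 2, 6 and 10, adjusted p 0.0501 to 0.0672). It was the only called gene of 13 tested in serine, methionine and one-carbon metabolism (7.69%, against 1.17% of all genes that rose). Of the 13 genes 11 were higher in HF_HF (median 0.10). Among these, the mitochondrial serine hydroxymethyltransferase Shmt2 had a difference of 0.18 (SE 0.06, adjusted p = 0.114).

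Slc38a5, a transporter of glutamine, serine and glycine, read 2084 to 3915 (median 2988) in HF_HF and 1747 to 2732 (median 2290) in HF_LF. It rose 1.33-fold (log2 0.42, SE 0.11, adjusted p = 0.0405), and the differences within cages 10, 20 and 23 were 0.07, 0.12 and 0.58. Without cage 23 the difference was 0.34 (adjusted p = 0.204) and without cage 21 also 0.34 (adjusted p = 0.188), and leaving out any 1 of 11 arrays ended the call (adjusted p 0.0546 to 0.0835). Slc38a3, another glutamine carrier, rose 1.18-fold (log2 0.24, SE 0.06, adjusted p = 0.0348). These were the 2 called of 15 plasma membrane amino acid transporters tested (13.3%, against 1.17% of all genes that rose). Of the 15 genes 10 were higher (median 0.04), and the list was drawn up after calls in it were seen. Also singled out on their values, the threonine aldolase Tha1 rose 1.13-fold, and Aldh18a1, the first enzyme of proline synthesis, rose 1.26-fold (273 to 324 in HF_HF, 182 to 287 in HF_LF, adjusted p = 0.0197). None of 18 aminoacyl-tRNA synthetases passed. The closest was Gars, which charges glycine (log2 0.26, SE 0.07, adjusted p = 0.0561).

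Lipid genes gave single calls rather than a group. Fads1, the desaturase that makes arachidonic acid, ran from 417 to 886 (median 634) in HF_HF and from 347 to 569 (median 435.5) in HF_LF, with 8 HF_HF animals above every HF_LF animal. The other 2, of cages 10 (417) and 21 (539), lay within the HF_LF range. Fads1 rose 1.46-fold (log2 0.55, SE 0.11, adjusted p = 0.0167), with 0.11 in cage 10, 0.63 in cage 20 and 0.60 in cage 23. It was the 1 called of 15 genes of fatty acid synthesis and desaturation (6.67%, against 1.17% of all genes that rose), of which 10 were higher (median 0.04). Tmem97, a sterol-regulated membrane protein, read 1064 to 2177 (median 1510) in HF_HF and 899 to 1222 (median 1023) in HF_LF. It rose 1.46-fold (log2 0.54, SE 0.10, adjusted p = 0.00896). Of 17 genes of cholesterol synthesis and its regulation it was the 1 called (5.88%, against 1.17% of all genes that rose), and 13 were higher (median 0.04). None of 20 genes of fatty acid oxidation passed (7 higher, median -0.02), Etfdh coming closest (log2 -0.19, SE 0.05, adjusted p = 0.0595). The sterol exporter Abcg8, singled out after its values were seen, lay near the array median (62.9 to 118 in HF_HF, 60.7 to 69.3 in HF_LF) and rose 1.27-fold (adjusted p = 0.0367).

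Among regulators of transcription, Bcl6, a repressor of metabolic and immune genes that FoxO factors induce, read 68.6 to 131 (median 114) in HF_HF and 58.7 to 89.5 (median 73.8) in HF_LF. Of the HF_HF animals, 7 lay above every HF_LF animal and 3, from cages 10, 21 and 23, lay within the HF_LF range. Bcl6 rose 1.46-fold (log2 0.55, SE 0.11, adjusted p = 0.0129). The corepressor Cbfa2t3 ran from 151 to 223.5 (median 171) in HF_HF and from 99.8 to 166 (median 116) in HF_LF and rose 1.45-fold (log2 0.53, SE 0.09, adjusted p = 0.00781), although 1 of its 2 other probes pointed the other way and neither passed. The immediate early gene Egr1 read 75.9 to 162 (median 114) in HF_HF and 68.9 to 103.5 (median 74.8) in HF_LF. It rose 1.39-fold (log2 0.48, SE 0.12, adjusted p = 0.0377), but the call ended without any 1 of 13 arrays (adjusted p 0.0505 to 0.0757).

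The coactivator Cited4 rose 1.35-fold (log2 0.43, SE 0.08, adjusted p = 0.0106), although the cage 10 difference was -0.02. Litaf, an endosomal protein first described as a regulator of TNF, read 574 to 902 (median 793) in HF_HF and 488 to 713 (median 551) in HF_LF and rose 1.34-fold (log2 0.42, SE 0.08, adjusted p = 0.0129). Its lowest HF_HF value, from HF_HF 7, stood well apart from the other 9. The growth-linked Ndrg1 rose 1.31-fold (log2 0.38, SE 0.06, adjusted p = 0.00781) and so did its other probe, and the polarity protein Llgl2 rose 1.31-fold (adjusted p = 0.00899). Parm1, a mucin-like membrane protein, rose 1.37-fold (adjusted p = 0.0411), a call that any 1 of 12 arrays could end (adjusted p 0.0522 to 0.0801). Its other probe did not pass (0.26, SE 0.09). Chchd10, a protein of the mitochondrial cristae, read 972 to 1591 (median 1480) in HF_HF and 680 to 1283 (median 944) in HF_LF and rose 1.42-fold (log2 0.51, SE 0.11, adjusted p = 0.0243). Without HF_HF 6 or HF_LF 2 its adjusted p was 0.0528 to 0.0533.

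A further set of regulators was seen only on reading the calls. Ets2, a target of growth factor signalling, ran from 324 to 467 in HF_HF and from 254 to 364 in HF_LF and rose 1.28-fold (log2 0.36, SE 0.07, adjusted p = 0.0106), with 0.42, 0.46 and 0.36 in the 3 cages. Nfe2l1, the regulator of proteasome genes, rose 1.22-fold (adjusted p = 0.0152) and the NF-kappa-B subunit Rela 1.17-fold (adjusted p = 0.033). Sphk2, which makes sphingosine 1-phosphate, separated the groups without overlap (133 to 177 in HF_HF, 105 to 133 in HF_LF, log2 0.32, SE 0.06, adjusted p = 0.0121). With cage as a fixed block, Ets2 still passed (adjusted p = 0.0195), but Nfe2l1, Rela and Sphk2 did not (0.0813, 0.163 and 0.124).

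Of 30 histone genes tested, 6 rose and none fell (20%, against 1.17% of all genes that rose). The list as a whole was not shifted, with 17 higher, 13 lower and a median of 0.03, and 5 of the 6 encode histone H2B. H2bc4 read 459 to 776 (median 625) in HF_HF and 322 to 563 (median 458) in HF_LF, with 8 HF_HF animals above every HF_LF animal. It rose 1.45-fold (log2 0.54, SE 0.11, adjusted p = 0.0128), and by nearly the same in each cage (0.70, 0.73 and 0.71), but its other probe did not pass (0.06, SE 0.03, adjusted p = 0.362) and its call ended without cage 10, 21 or 23 (adjusted p 0.0629 to 0.103). The others moved less: H2bc7 by 0.26, H2bc14 by 0.26, H2ac18 by 0.23, H2bc11 by 0.23 and H2bc12 by 0.23 (adjusted p 0.0168 to 0.0445). The linker histone H1f2 had a difference as large as that of H2bc4 with more spread (0.55, SE 0.20, adjusted p = 0.151), and the replacement histone H3f3a a difference of -0.22 (SE 0.06, adjusted p = 0.062). Without HF_LF 4 only 3 histone genes passed and with cage as a fixed block only 1. Histone genes of 1 class are nearly alike in sequence, so a probe may report several, and which copy changed is uncertain.

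Replication-dependent H2B genes carry an octamer, ATTTGCAT, close to their start, which the factor OCT1 binds in S phase. It is in 1.81% of all genes in the promoter table and in 15 of the 45 listed histone genes with a promoter there. Of the 6 called histone genes 5 are in the table, without H2bc4, which was therefore not searched. Of these 5, H2bc12 and H2bc14 hold it, shown here with the octamer in capitals, each on the plus strand of GRCm38.p6.
H2bc12, chr13:22035765-22035820: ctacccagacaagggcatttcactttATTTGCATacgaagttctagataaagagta
H2bc14, chr13:21721993-21722043: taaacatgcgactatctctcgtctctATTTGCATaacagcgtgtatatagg
The octamer starts 30 and 25 bases before the gene start. Of all called genes with a promoter, 3 of 83 that rose hold it, with Chchd10 as the third, and 3 of 87 that fell (Creb3, Habp2 and Lurap1l). In Chchd10 it overlaps the TGATGCAA element, which runs into it read on the other strand.

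The largest fall was that of Reg2. Its signal spanned 1075 to 26993 (median 8117) in HF_HF and 11333 to 35588 (median 23817) in HF_LF, where 2 animals sat at the top value of the array. In HF_HF, 6 animals lay below the lowest HF_LF animal, while the highest values, 19002 in cage 10 and 26993 in cage 23, lay well within the HF_LF range. Reg2 fell 3.65-fold (log2 -1.87, SE 0.45, adjusted p = 0.0348), with -0.32 in cage 10, -2.18 in cage 20 and -1.6 in cage 23. With cage as a fixed block its adjusted p was 0.224, and the call ended without any 1 of 7 arrays (HF_HF 2, 6 and 8 and HF_LF 2, 4, 6 and 10, adjusted p 0.0553 to 0.0669).

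None of the other 6 Reg genes passed, so 14.3% of the family was called, against 1.29% of all genes that fell. Reg3a read 207 to 4971 (median 1444) in HF_HF and 1147 to 11333 (median 2828) in HF_LF (log2 -1.55, SE 0.56, adjusted p = 0.146), and its difference had opposite signs in cage 10 (1.10) and in cages 20 and 23 (-1.46 and -1.96). Reg3b had a difference of -0.89 (SE 0.44, adjusted p = 0.296), Reg3g -0.40 (SE 0.40) and Reg3d -0.21 (SE 0.19). Reg1, also near the top of the range, read 23412 to 32393 in HF_HF and 20957 to 32393 in HF_LF (log2 0.05, SE 0.07, adjusted p = 0.748). The median over the 7 genes was -0.40, but -0.20 without HF_LF 4, -0.63 without HF_HF 5 and -0.13 with cage as a fixed block. Klk1b11, a glandular kallikrein, read 135 to 384 (median 197) in HF_HF and 235 to 631 (median 318) in HF_LF, with 9 HF_HF animals below every HF_LF animal and HF_HF 1 far above the rest of its group. It fell 1.77-fold (log2 -0.82, SE 0.20, adjusted p = 0.0338), and its other probe also passed. The other 6 kallikreins tested did not pass (14.3% of the list called, against 1.29% of all genes that fell). Kallikrein probes may share targets, and leaving out any 1 of 7 arrays ended the Klk1b11 call (adjusted p 0.0516 to 0.0669).

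Bex2, Akr1c12 and Habp2 fell and kept their calls without any 1 array and with cage as a fixed block, but each lost its call without cage 23 (adjusted p = 0.0966, 0.0519 and 0.0516). Bex2, a small X-linked signalling protein of endocrine and nervous cells, ran from 150 to 250 (median 206) in HF_HF and from 218 to 505 (median 329) in HF_LF. The only HF_LF animals inside the HF_HF range were the 2 of cage 12. Bex2 fell 1.62-fold (log2 -0.70, SE 0.13, adjusted p = 0.0106), both its other probes passed in the same direction, and with cage as a fixed block its adjusted p was 0.000176. Akr1c12, an aldo-keto reductase, read 148 to 227 (median 162) in HF_HF and 214 to 359 (median 253) in HF_LF, and 8 HF_HF animals lay below every HF_LF animal. It fell 1.51-fold (log2 -0.59, SE 0.09, adjusted p = 0.00491), but its family members are alike and a probe may report more than 1. Habp2, a secreted protease that activates clotting factor VII, had the smallest p of all (135.5 to 171 in HF_HF, 177 to 212 in HF_LF). It fell 1.26-fold with no overlap (log2 -0.33, SE 0.05, adjusted p = 0.00341), although 1 of its 2 other probes did not pass (-0.07, SE 0.05).

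Sesn1, a p53 and FoxO target that restrains mTOR, read 298 to 589 (median 435) in HF_HF and 441 to 1001 (median 741) in HF_LF. The 3 lowest animals were the HF_HF animals of cage 21, and 2 HF_LF animals, from cages 1 and 23, lay within the HF_HF range. Sesn1 fell 1.62-fold (log2 -0.70, SE 0.14, adjusted p = 0.0164), but its other probe did not pass (-0.32, SE 0.11). Selenop, which carries selenium in plasma, read 539 to 1099 (median 839.5) in HF_HF and 878 to 2211 (median 1314) in HF_LF and fell 1.57-fold (log2 -0.65, SE 0.14, adjusted p = 0.0203), with 0.10 in cage 10 against -0.75 and -0.74 in cages 20 and 23. Its other probe did not pass (-0.13, SE 0.21). The ER selenoprotein Selenof fell 1.3-fold (adjusted p = 0.0377), but its other probe did not pass either (-0.09, SE 0.04). These were the 2 called of 13 selenoproteins (15.4%, against 1.29% of all genes that fell), of which 6 were higher.

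Errfi1, a feedback inhibitor of the EGF receptor, read 141 to 228 in HF_HF and 172 to 316 in HF_LF and fell 1.46-fold (log2 -0.55, SE 0.11, adjusted p = 0.0128), with -0.02, -0.76 and -0.14 within cages 10, 20 and 23. It passed without cage 20 but not without cage 21 (-0.48, adjusted p = 0.0965) or with cage as a fixed block (-0.27, adjusted p = 0.246). Rbm3, an RNA-binding protein induced by cold, fell 1.43-fold (log2 -0.52, SE 0.12, adjusted p = 0.031; 120 to 248 in HF_HF, 180 to 339 in HF_LF). Its call ended without any of HF_HF 2 or 8 or HF_LF 2, 8 or 10 (adjusted p 0.0527 to 0.0658). In FoxO and p53 target genes as a list, Bcl6 rose, Sesn1 and Errfi1 fell and the other 15 of 18 did not pass (16.7% called, against 2.46% of all genes). In polyamine and arginine metabolism, the spermine oxidase Smox (log2 -0.39, SE 0.08, adjusted p = 0.0128, all 4 other probes lower, 2 of them called) and the mitochondrial arginase Arg2 (log2 -0.42, SE 0.09, adjusted p = 0.0164) fell and 12 of 14 did not pass (14.3% called, against 1.29% of all genes that fell). Piga, the first enzyme of GPI anchor synthesis, fell 1.32-fold (adjusted p = 0.0128; its other probe -0.06, not passed), and Golga7, a Golgi palmitoylation cofactor, 1.32-fold (adjusted p = 0.023, and 0.053 without HF_LF 2).

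**Figure D3:**
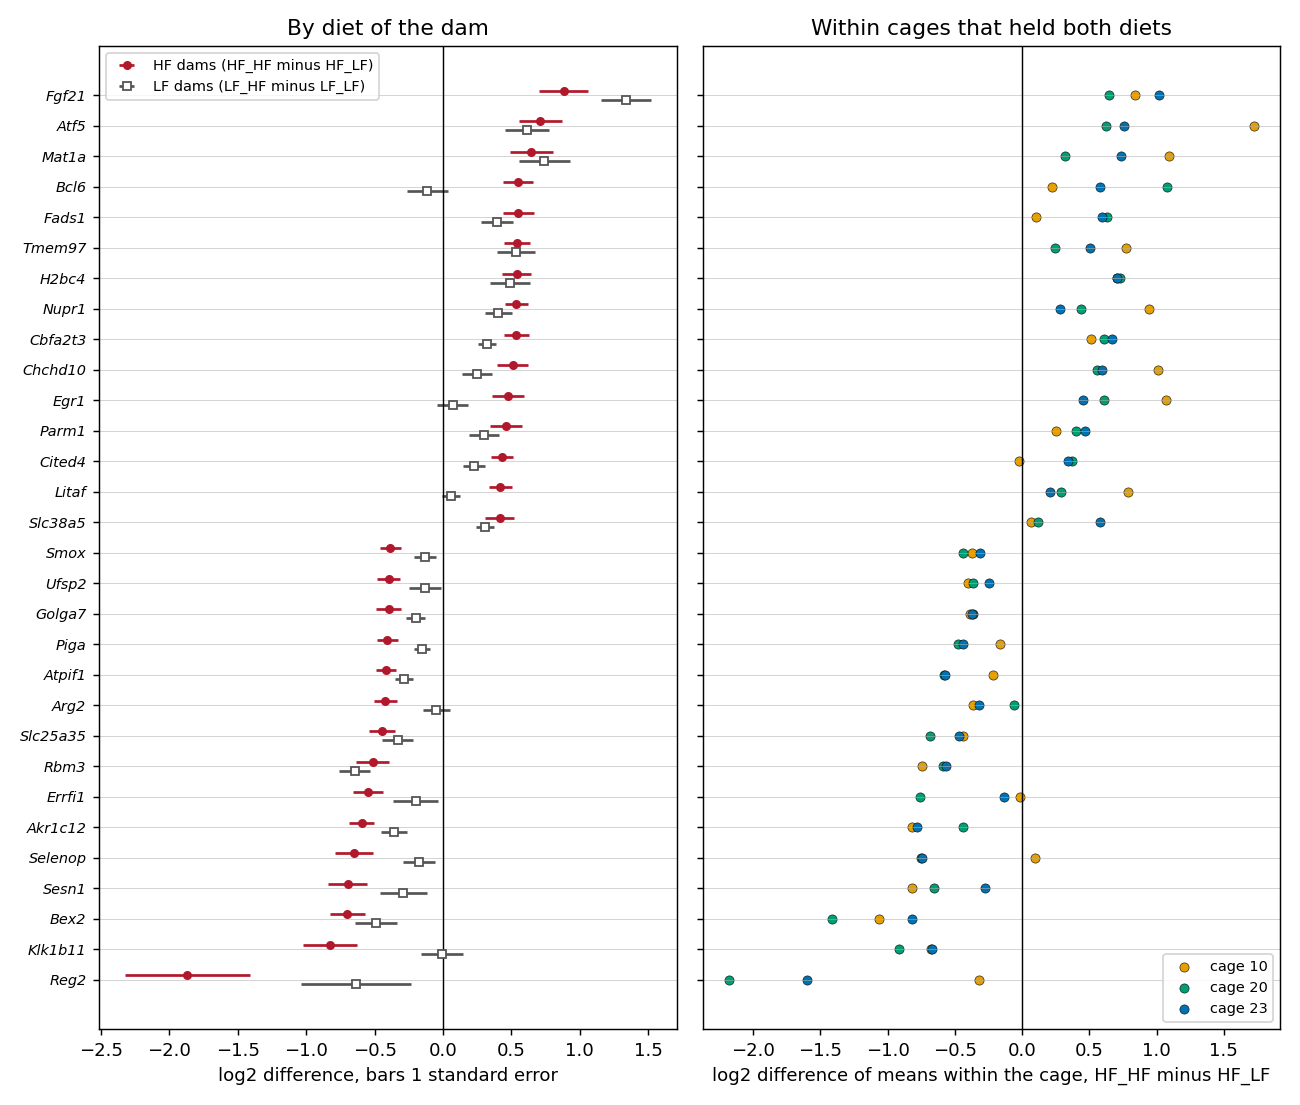
The 15 genes with the largest rise and the 15 with the largest fall. Left: log2 difference with 1 SE in offspring of HF dams (HF_HF minus HF_LF, filled) and of LF dams (LF_HF minus LF_LF, open). Right: difference of the means within cages 10, 20 and 23 (HF_HF minus HF_LF). Bcl6 is 0.55 from HF dams and -0.12 from LF dams; Cited4 and Selenop change sign in cage 10.

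Of 25 tested genes of ER translocation and N-glycosylation 18 were lower in HF_HF (median -0.09 over the list) and 2 fell (8%, against 1.29% of all genes): the translocon subunit Ssr3 (1107 to 1963 in HF_HF, 1477 to 1950 in HF_LF, log2 -0.33, SE 0.08, adjusted p = 0.0339) and the signal peptidase subunit Spcs3 (log2 -0.33, SE 0.08, adjusted p = 0.0348). Any 1 of 11 arrays ended the Ssr3 call (adjusted p 0.0501 to 0.0658) and any 1 of 13 the Spcs3 call (0.0502 to 0.0691), and neither passed with cage as a fixed block or without HF_LF 4. Of 16 ER chaperones only the disulphide isomerase Pdia3 passed, and it fell (log2 -0.18, SE 0.04, adjusted p = 0.04). This was 6.25% of the list, against 1.29% of all genes that fell, and 10 of the 16 were higher (median 0.03). No digestive enzyme passed of 22 tested (12 higher, median 0.04). The probes of Amy2a5, Cel and Ctrb1 were at the top value of the array in some animals, and in 17 of the 22 both group medians lay above 0.5 of that value. How far this limits the differences that could show was not tested. The enzyme nearest to a call was the trypsinogen Prss3 (8183 to 10977 in HF_HF, 8183 to 15287 in HF_LF, log2 -0.32, SE 0.10, adjusted p = 0.0721).

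Lists of ER to Golgi transport, UFM1 conjugation and lysosomal genes were drawn up after calls in them had been seen, so their counts describe and support nothing. Of 55 transport genes 4 fell and none rose (7.27%, against 1.29% of all genes that fell). They were the COPII GTPases Sar1b (log2 -0.33, SE 0.07, adjusted p = 0.0243, its other probe -0.27, not passed) and Sar1a (-0.25, SE 0.06, adjusted p = 0.0302), the exit site organiser Tfg (-0.23, adjusted p = 0.0461) and the tether Uso1 (-0.23, adjusted p = 0.0491). The oligosaccharyltransferase subunit Ostc (-0.30, adjusted p = 0.0334), the translocon-associated Serp1 (-0.27, adjusted p = 0.0479), the ER reductase Dnajc10 (-0.20, adjusted p = 0.0302, its other probe -0.06, not passed) and the ER-bound transcription factor Creb3 (-0.24, adjusted p = 0.041), also picked afterwards, fell as well. Without either HF_HF 5 or HF_LF 4, only 2 of the transport genes passed. Ufsp2, the protease that matures the ubiquitin-like UFM1, read 204 to 364 (median 249) in HF_HF and 283 to 410 (median 333) in HF_LF. It fell 1.32-fold (log2 -0.40, SE 0.09, adjusted p = 0.0202; its other probes -0.27 and -0.18, not passed), and the UFM1 ligase Ufl1 fell 1.12-fold (adjusted p = 0.0491; its other probe -0.09, not passed). So 2 of 6 tested genes of that pathway passed (33.3%, against 1.29% of all genes that fell) and all 6 were lower (1 passed without HF_HF 5 or without HF_LF 4). With cage as a fixed block none of the transport or UFM1 genes passed.

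In the other direction, 5 of 33 lysosomal genes rose and none fell (15.2%, against 1.17% of all genes that rose). Of the 33 genes 24 were higher (median 0.10). The 5 that rose were the mannosidases Man2b1 (283 to 519 in HF_HF, 240 to 369 in HF_LF, log2 0.38, SE 0.10, adjusted p = 0.0377) and Manba (0.21, SE 0.05, adjusted p = 0.033, its other probe 0.03, not passed), the membrane protein Cln3 (0.20, adjusted p = 0.0348), the sulphatase Arsa (0.24, adjusted p = 0.0437) and the cation channel Tpcn1 (0.31, adjusted p = 0.0491, its other probe 0.09, not passed). Only 1 of these 33 genes passed without HF_HF 5 and none without HF_LF 4 or with cage as a fixed block. HF_HF 5 also had the highest myeloid signal of all 20 arrays. Without it the median was 0.09 for the lysosomal list and 0.08 for the myeloid list, and the part of myeloid cells in these calls was not tested. The ferritin heavy chain Fth1, also chosen on its values, rose 1.3-fold (6660 to 10977 in HF_HF, 5195 to 7463 in HF_LF, adjusted p = 0.0206) on both its probes, but it has many processed copies in the genome.

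**Figure D4:**
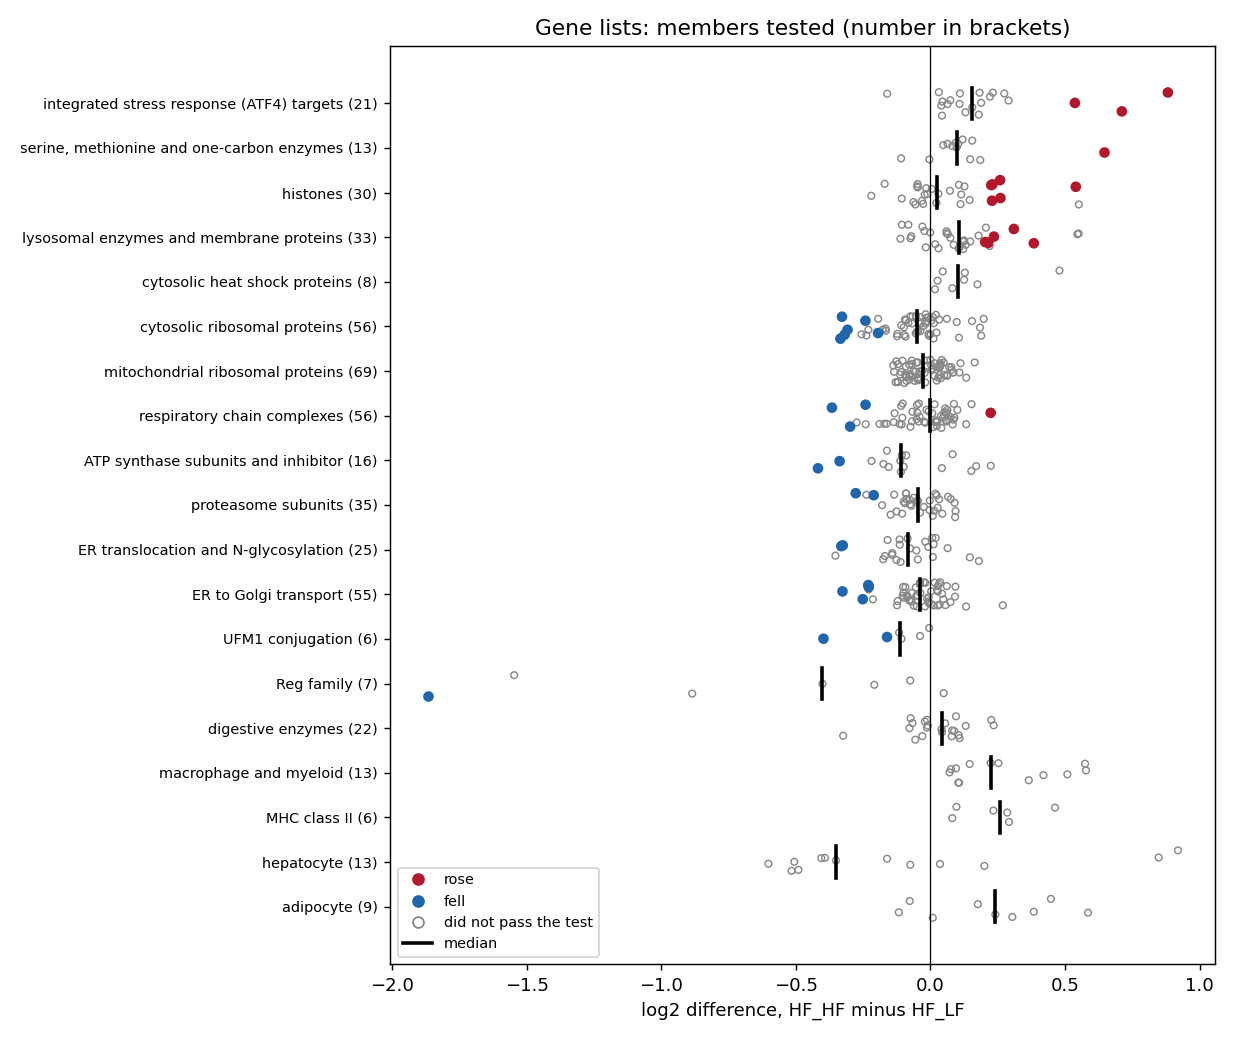
Log2 difference (HF_HF minus HF_LF) of each tested member of 19 gene lists, with called members filled (red rose, blue fell) and the list median as a bar. The ER to Golgi, UFM1 and lysosomal lists were drawn up after values were seen. Histone and lysosomal calls lie to the right, those of ribosomal and ER translocation genes to the left, and no marker list has a called member.

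Of 56 cytosolic ribosomal proteins 6 fell and none rose (10.7%, against 1.29% of all genes that fell), and 41 were lower (median -0.05). None of 69 mitochondrial ribosomal proteins or 42 translation factors passed. Rpl13a read 295 to 360 (median 322) in HF_HF and 365 to 449 (median 413) in HF_LF without overlap, and fell 1.26-fold (log2 -0.33, SE 0.05, adjusted p = 0.00436) with -0.33, -0.30 and -0.30 in the 3 cages. Rpl12 (4060 to 5195 in HF_HF, 5072 to 6479 in HF_LF) fell 1.24-fold (adjusted p = 0.00896), and Rps3, Rps9, Rpl22 and Rps7 fell 1.14- to 1.26-fold. The other Rps9 probe did not pass and pointed up, and that of Rps3 did not pass either (-0.06, SE 0.19). Of the 6, only Rpl13a (adjusted p = 0.0392) and Rps9 (adjusted p = 0.0195) passed with cage as a fixed block, and 3 of the list passed without HF_HF 5 and 4 without HF_LF 4. Ribosomal protein genes have many processed copies, which probes could also bind.

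Atpif1, the inhibitor of the mitochondrial ATP synthase, read 686 to 881 (median 791) in HF_HF and 872 to 1245 (median 1043) in HF_LF, and 9 HF_HF animals lay below every HF_LF animal. It fell 1.34-fold (log2 -0.42, SE 0.07, adjusted p = 0.00896), and the synthase subunit Atp5l fell 1.26-fold (adjusted p = 0.0106). So 2 of 16 passed (12.5%, against 1.29% of all genes that fell) and 11 of 16 were lower (median -0.11). In the respiratory chain the complex I subunits Ndufv2 (log2 -0.37, SE 0.07, adjusted p = 0.00896), Ndufa5 (-0.30, SE 0.06, adjusted p = 0.0121; its other probe -0.03, not passed) and Ndufc2 (-0.24, SE 0.06, adjusted p = 0.0474) fell, Cox5a of complex IV rose (0.22, SE 0.05, adjusted p = 0.031), and the median of the 56 genes was 0.00. In place of 4 calls (7.14% of the 56 genes, against 2.46% of all genes) this list had 2 without HF_LF 4 and 1 with cage as a fixed block. The mitochondrial carrier Slc25a35, whose substrate is not established, read 109 to 166 (median 126) in HF_HF and 130 to 249 (median 175.5) in HF_LF. It fell 1.36-fold (log2 -0.45, SE 0.10, adjusted p = 0.0202) and was the 1 called of 27 carriers (3.7%, against 1.29% of all genes that fell). The proteasome subunits Psma7 and Psmb7 fell (2 of 35, 5.71%, against 1.29% of all genes that fell), and 23 were lower. Of 20 spliceosome proteins 3 passed (15%, against 2.46% of all genes). Lsm8 (-0.35, SE 0.06, adjusted p = 0.00781) and Snrpd2 (-0.20, SE 0.05, adjusted p = 0.0424) fell while Snrpa rose (0.24, SE 0.04, adjusted p = 0.00896, 120 to 133 in HF_HF, 95.5 to 120 in HF_LF). The other Snrpa probe did not pass (0.13, SE 0.04). The proteasome list had 1 call without HF_HF 5 or HF_LF 4, the splicing list 2, and with cage as a fixed block neither had any.

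The arrays carried the markers of pancreas. The acinar enzymes Amy2a5, Cel, Prss2 and Cpa1 were at the top of the range, and the summed signal of 6 acinar genes was 171300 to 185900 in HF_HF and 171700 to 181000 in HF_LF. Insulin (Ins2) ran from 4464 to 13729 in HF_HF and 4162 to 11739 in HF_LF. None of 19 islet genes passed (11 higher, median 0.04). None of 4 acinar transcription factors passed either, but all 4 were higher (median 0.20), or 3 with cage as a fixed block (median 0.16). The nearest was Bhlha15 (log2 0.31, SE 0.09, adjusted p = 0.062). Of 8 duct markers the bicarbonate carrier Slc4a4 (near the array median, 56.1 to 69.9 in HF_HF, 64.8 to 76.4 in HF_LF, log2 -0.16, SE 0.04, adjusted p = 0.0348) and the keratin Krt18 (-0.20, SE 0.05, adjusted p = 0.0437) fell. These 2 were 25% of the duct markers tested, against 1.29% of all genes that fell. Of the duct markers 1 passed without HF_HF 5, and none without HF_LF 4 or with cage as a fixed block.

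No marker of another cell type passed, but their sums differed between animals. The 13 myeloid genes summed to 1586 to 13910 (median 1981) in HF_HF and 1530 to 3059 (median 1843) in HF_LF, and all 13 were higher in HF_HF (median 0.22, or 0.08 without HF_HF 5). The 6 MHC class II genes, also all higher, summed to 593 to 1434 (median 764) in HF_HF and 570 to 1046 (median 637) in HF_LF (median difference 0.26, or 0.16 without HF_HF 5). The array HF_HF 5 was the highest of its group in both and the farthest of all 20 from the median array. The 13 hepatocyte genes, 9 of them lower, summed to 1802 to 3917 (median 2134) in HF_HF and 1708 to 5668 (median 2120) in HF_LF, the highest being HF_LF 4 (median difference -0.35, or -0.26 without it). The 9 adipocyte genes summed to 1082 to 2345 (median 1578) in HF_HF and 1119 to 1769 (median 1249) in HF_LF (7 higher, median 0.24). The part of other cell types in the calls was not tested. Of the 274 called probes, 188 still passed without HF_HF 5 and 131 without HF_LF 4. Fgf21, Bex2, Akr1c12, Habp2 and H2bc4 kept their calls without HF_HF 5 (adjusted p 0.00314 to 0.0252) and without HF_LF 4 (0.00959 to 0.0173). Egr1 lost its call without HF_HF 5 (adjusted p = 0.0508), and Egr1, Reg2, Parm1 and Slc38a5 lost theirs without HF_LF 4 (0.0587 to 0.0698).

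**Figure D5:**
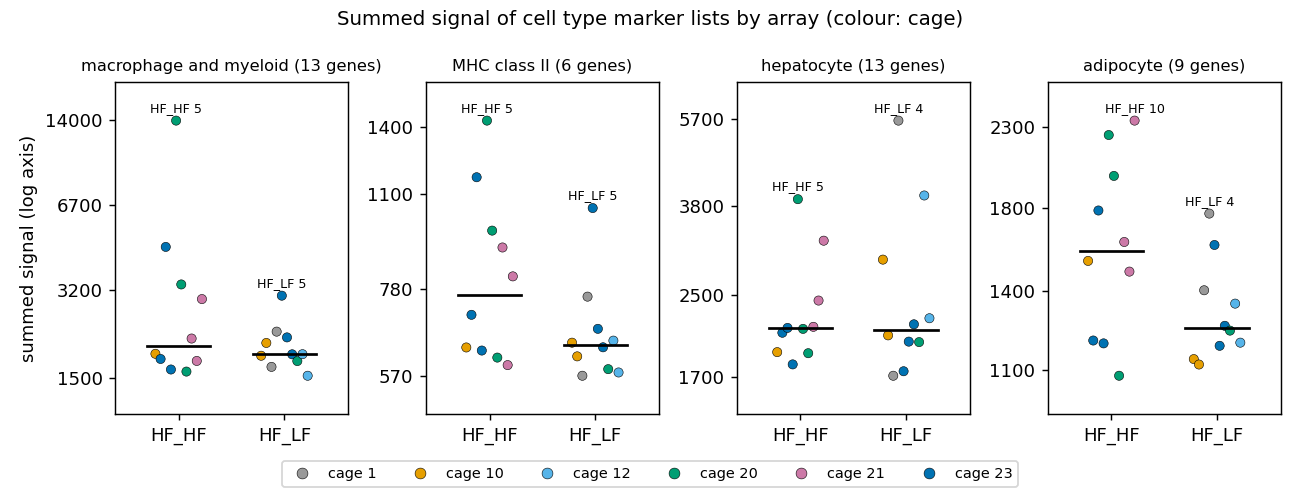
Summed signal (log axis) of tested marker genes of 4 other cell types in each animal, HF_HF left and HF_LF right, coloured by birth cage, with a bar at the median and the highest array of each group named. HF_HF 5 leads the myeloid, MHC class II and HF_HF hepatocyte sums, and HF_LF 4 has the highest hepatocyte sum. In HF_HF 5 the single gene Hp gives 1812 of the hepatocyte sum of 3917.

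The same diet contrast in offspring of LF dams (LF_HF against LF_LF) rests on other animals. There 5 probes passed (0.0408%), 4 higher and 1 lower in LF_HF. The array LF_LF 1 stood far apart in markers of other cell types. It read 3070 for Cd74 and 2287 for Laptm5, against at most 228.5 and 213.5 in the other LF_LF animals. It was kept, and its part in this contrast and in the interaction below was not tested. Of the 218 genes called from HF dams, 188 (86.2%) had the same sign in LF_HF against LF_LF, as had 60.7% of all tested genes, and the median ratio of their difference to that from HF dams was 0.41. The 218 genes had been picked by their difference from HF dams, and only 3 were also called from LF dams: Fgf21 (log2 1.34, SE 0.18, adjusted p = 0.00205), Rbm3 (-0.65, SE 0.11, adjusted p = 0.0204) and Zfpm1 (0.44, SE 0.07, adjusted p = 0.0192), a GATA cofactor that rose 1.31-fold from HF dams. Fgf21 read 208 to 604 (median 271) in LF_HF and 75.7 to 182.5 (median 130) in LF_LF. The stress response list had a median of 0.28 from LF dams with all 21 genes higher, and Chac1, not called from HF dams, was called there (1.45, SE 0.26, adjusted p = 0.0285).

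Whether the effect itself differed by the dam's diet was tested as an interaction over all 40 arrays. No probe passed limma's test (0 of 12246, 0.0%; lowest adjusted p = 0.211), and 676 had an unadjusted p under 0.05. The difference in effect (HF dams minus LF dams) was -0.45 for Fgf21 (adjusted p = 0.866), 0.67 for Bcl6 (adjusted p = 0.8), -1.23 for Reg2 (adjusted p = 0.866) and -1.27 for Chac1 (adjusted p = 0.809). The larger number of calls from HF dams than from LF dams is therefore not shown to be a difference in effect for any single gene. For pancreas the paper, with its own test and filter, reports the opposite order, with more genes from LF dams than from HF dams. Why the order differs was not tested. Bcl6 was 63 to 120 (median 74.8) in LF_HF and 57.3 to 154 (median 81.1) in LF_LF, where the highest value was that of LF_LF 1.

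Within the 3 cages that held both diets, 207 of the 218 called genes had the direction of the whole comparison in each cage, and 11 had it in 2 of 3. These are the same animals that made the calls, so this is a description, and 35.04% of all tested probes had 1 direction in all 3 cages and in the whole comparison. Of the 40 genes named first by size or p, 30 kept their call whichever array was left out, 19 passed with cage as a fixed block, and 38 lost their call without cage 23. Among all 218 genes, 63 kept their call whichever array was left out and 30 passed with cage as a fixed block. Those called in each of the 13 settings other than leaving out a cage or an array were Atf5, Bcl6, H2bc4, Bex2, Akr1c12, Slc25a35, Atpif1, Habp2, Ndufv2 and Psca.

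Body weight separated the groups completely, so gene levels were related to the second weight only within each diet. Of 80 relations (40 genes in 10 HF_HF or 10 HF_LF mice), none passed after correction by Pearson's r (lowest adjusted p = 0.272) or Spearman's rho (lowest adjusted p = 0.213). The strongest by r was Ndrg1 in HF_LF (r = 0.77, permutation p = 0.00917; rho = 0.83, permutation p = 0.0045; r = 0.83 without the 2 weights farthest from the median). Litaf in HF_HF had r = -0.77 (permutation p = 0.0136) and rho = -0.56 (permutation p = 0.0966), and r = -0.09 without those 2 animals, so that relation rested on them.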

How the data were processed

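Pancreas RNA of 40 mice was hybridised to Illumina MouseRef-8 v2.0 beadchips. The deposited values are linear signal intensity, made with BeadStudio per the submitters' processing notes (version not given in the sources used here) and quantile normalized by the authors over the 40 arrays; the lowest value was 43, and background was not subtracted here (sorted values differ by at most 1.86%). Only log2 was taken. A probe was tested if above its array's median in at least 20 of 40 arrays, which kept 12246 of 25697. Of all probes 23978 had 1 gene symbol and 1719 none. The number of arrays limits the precision.

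HF_HF and HF_LF (20 arrays) were compared with limma 3.58.1 in R 4.3.3 (intensity trend, two-sided, Benjamini-Hochberg over tested probes). The interaction used all 40 arrays. Correlations and body measures used permutation tests (100000 resamples; scipy 1.17.1, numpy 2.4.6, Python 3.11.15). On simulated data for this comparison limma recovered 78% of probes moved 1.2-fold and 98% moved 1.5-fold, with 10 false calls. Whether this recovery and number of false calls hold for animals that share a cage was not tested. Promoters came from RefSeq (GRCm38.p6), where 83 and 87 genes that rose and fell matched by symbol.

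Genes named were the 15 largest rises and falls among called genes, 10 more by smallest p, called list members, the smallest p where a list had fewer than 2 calls, and up to 4 per marker list; genes and lists outside this rule are identified in the text. The groups, lists and members were chosen with earlier results of these data known. Alternatives were other filters, scalings, tests, array weights, cage as a block, and leaving out each array and cage.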

Additional observations from a re-analysis of the deposited data

Results flagged for a closer look

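In 31 of 388 groups of 10 animals that were examined, 1 animal stood apart from the other 9: its gap to the nearest animal, as a share of the whole range of the group, passed Dixon's 95% critical value. Gap and range were taken on the log2 scale, while the signals printed here are linear. Chance gives about 1 in 20 groups, and many of these genes come from the same few arrays. The cause was not tested. Among genes that rose or fell, these were Nupr1 in HF_LF (HF_LF 9 lowest at 9163, against a median of 13248 in the other 9; share 0.584), Litaf in HF_HF (HF_HF 7 lowest at 574.4, against a median of 794.6 in the other 9; share 0.514), Klk1b11 in HF_HF (HF_HF 1 highest at 383.9, against a median of 191 in the other 9; share 0.479), Akr1c12 in HF_LF (HF_LF 5 highest at 359.1, against a median of 251.8 in the other 9; share 0.475), Rps9 in HF_HF (HF_HF 3 lowest at 1228, against a median of 1494 in the other 9; share 0.491), H2bc12 in HF_HF (HF_HF 9 highest at 195.6, against a median of 162.8 in the other 9; share 0.541), H2bc7 in HF_HF (HF_HF 3 lowest at 302.6, against a median of 387.5 in the other 9; share 0.477) and H2bc14 in HF_HF (HF_HF 9 highest at 237, against a median of 162 in the other 9; share 0.553). Further called genes were Uso1 in HF_HF (HF_HF 9 highest at 213.2, against a median of 160.3 in the other 9; share 0.516), Manba in HF_LF (HF_LF 6 lowest at 96.1, against a median of 116.8 in the other 9; share 0.597), Tpcn1 in HF_LF (HF_LF 2 lowest at 125, against a median of 175.5 in the other 9; share 0.48), Vmp1 in HF_HF (HF_HF 7 highest at 288.8, against a median of 233.9 in the other 9; share 0.477) and Zfp36l1 in HF_HF (HF_HF 4 lowest at 433.2, against a median of 558 in the other 9; share 0.48). Of genes of the pathway lists that did not pass, a sample stood apart for Gcat in HF_HF (HF_HF 3 highest at 83.2, against a median of 67.5 in the other 9; share 0.469), Gars in HF_HF (HF_HF 8 highest at 2230, against a median of 1733 in the other 9; share 0.489), Akr1c14 in HF_HF (HF_HF 7 lowest at 52.8, against a median of 62.3 in the other 9; share 0.583), Ddit3 in HF_HF (HF_HF 1 highest at 133.4, against a median of 86.6 in the other 9; share 0.509) and Reg1 in HF_LF (HF_LF 3 lowest at 20957, against a median of 28131 in the other 9; share 0.478). In the myeloid, MHC class II and hepatocyte lists it was mostly HF_HF 5 or HF_LF 5: Hp in HF_HF (HF_HF 5 highest at 1812, against a median of 117.3 in the other 9; share 0.563), Laptm5 in HF_HF (HF_HF 5 highest at 1055, against a median of 158.8 in the other 9; share 0.468), Fcer1g in HF_HF (HF_HF 5 highest at 462.1, against a median of 91.5 in the other 9; share 0.61), C1qc in HF_HF (HF_HF 5 highest at 302.6, against a median of 106.9 in the other 9; share 0.537), H2-DMb1 in HF_HF (HF_HF 5 highest at 91.8, against a median of 72.8 in the other 9; share 0.513), Cd74 in HF_LF (HF_LF 5 highest at 298.8, against a median of 146.6 in the other 9; share 0.672) and H2-Ab1 in HF_LF (HF_LF 5 highest at 309.6, against a median of 137.7 in the other 9; share 0.514). For fibroblast, adipocyte and pancreas markers the values were Col6a1 in HF_LF (HF_LF 5 highest at 190.2, against a median of 125.4 in the other 9; share 0.616), Lep in HF_HF (HF_HF 10 highest at 114.5, against a median of 76.5 in the other 9; share 0.49), Lipe in HF_HF (HF_HF 4 highest at 72, against a median of 66.7 in the other 9; share 0.508), Cpa1 in HF_LF (HF_LF 6 lowest at 22019, against a median of 25205 in the other 9; share 0.47), Ins2 in HF_LF (HF_LF 4 lowest at 4162, against a median of 7463 in the other 9; share 0.481) and Gcg in HF_HF (HF_HF 5 lowest at 670.6, against a median of 1709 in the other 9; share 0.471).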

How the results depend on the processing

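All 274 called probes kept their direction in each of the 39 settings in which they were tested. This is a description, because the settings reuse animals that made the calls. Changing only the filter, the intensity trend or the test leaves the difference itself as it was. The number of calls was 101 with a regularized test after Cyber-T, 76 without a filter on low signal, 51 with cage as a fixed block, 26 with only the cages that held both diets, and 479 with array weights. It lay within 1.5 times 274 with all 40 arrays in 1 fit, without the intensity trend, with stricter filters, with cyclic loess, median centring or background subtraction, and with cage as a random block. Leaving out 1 cage gave 2 to 214 calls and leaving out 1 array 81 to 551, which the report names. The cause was not tested, beyond the fewer animals in these fits. No paired analysis was possible because the labels carry no replicate numbers that tie 1 animal to another; the diets could be matched only by birth cage, as in the fits with cage as a block. The interaction had 0 calls in each of its 4 settings (limma; 676 probes at an unadjusted p under 0.05). Signals near the array median include background, and Reg2 was at the top value in 2 HF_LF arrays, which limits both folds.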

Other observations

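Csn1s2b, a casein gene, was called from LF dams only (log2 0.24, SE 0.04, adjusted p = 0.0172, LF_HF minus LF_LF) and had a difference of 0.01 from HF dams (HF_HF minus HF_LF, adjusted p = 0.923). The interaction did not pass (adjusted p = 0.619).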
